A study of Meleagris gallopavo with 8 samples.

Results

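The genes described are 9 structural genes of the muscle sarcomere: NEB, ACTN2, TPM2, MYOM1, MYOM2, LDB3, MYPN, NRAP and ACTC1. They were found by gene name in the transcript annotation that the authors deposited, and a transcript was taken when its class was an exact match to a reference transcript, a fragment contained in one, or a variant that shares a splice junction with one and differs elsewhere. All 9 names were found, of 7360 gene names with such a transcript, and they carried 83 of 15928 such transcripts. The annotation was merged over 8 samples of turkey pectoralis major (breast) muscle from the random-bred RBC2 line at 22 weeks of age, 4 classed as normal meat with high marinade uptake and 4 as pale, soft and exudative (PSE) meat with low uptake at 24 h after slaughter. Birds came from a flock of 43, RNA of integrity number 8 or higher was used at 10 µg per library, and 2 libraries shared a sequencing lane. The study's purpose was a test of gene expression in PSE against normal muscle. The annotation holds exon positions and no measure of abundance. A deposited table of counts per locus has 8 columns without names and was not used, so neither depth nor level is given here. No comparison between normal and PSE muscle was made.

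The sarcomere is the repeating contractile unit of striated muscle. Actin thin filaments are anchored at its borders, the Z-discs, by alpha-actinin, and myosin thick filaments are cross-linked in its middle, the M-band, by myomesins. Nebulin is a giant protein made of short actin-binding repeats that runs along the thin filament, with its C-terminal end inside the Z-disc. In mammals, the exons for that Z-disc end are known to be spliced in different combinations. Myopalladin and LDB3 (also called ZASP or Cypher) are Z-disc proteins that bind alpha-actinin. NRAP is a nebulin-related protein known from myofibril assembly and muscle attachment sites. Beta-tropomyosin (TPM2) and cardiac alpha-actin (ACTC1) belong to the thin filament rather than to the Z-disc or M-band.

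Marker names listed for the labelled tissue and for other cell types were looked up in the annotation. The presence of a name does not test the tissue label. Of 9 skeletal muscle markers, 4 were assembled: TNNI2 (fast troponin I), PVALB (parvalbumin), MYF6 (a muscle transcription factor) and CACNA1S (the voltage sensor of skeletal muscle). The other 5, CKM, ACTA1, MYLPF, TNNT3 and MYBPC2, had no transcript under these symbols, and whether they stand under other names was not tested. Of 9 slow or cardiac markers 3 were assembled, of 5 smooth muscle markers 4, of 5 fibroblast markers 4, and of 4 endothelial markers 3. NPPB, of the slow or cardiac list, was named in the annotation but had no transcript of the classes taken. An entry in the annotation says that a transcript was assembled and not how abundant it was, so these counts do not measure a mixture of cells.

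The 83 transcripts of the 9 genes comprised 1 exact match, 46 contained fragments and 36 variants. ACTC1 held the only exact match, against 38.7% of the 7360 genes with at least 1. A variant was found for 7 of the 9 genes, all but MYOM2 and ACTC1, against 52.0% of all genes. The median was 3 transcripts per gene, against 2 over all genes, and the median of the most exons on any transcript was 9, against 6. The count of transcripts ran from 1 for MYOM2 and ACTC1 to 53 for NEB, with MYPN next at 9.

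**Figure D1:**
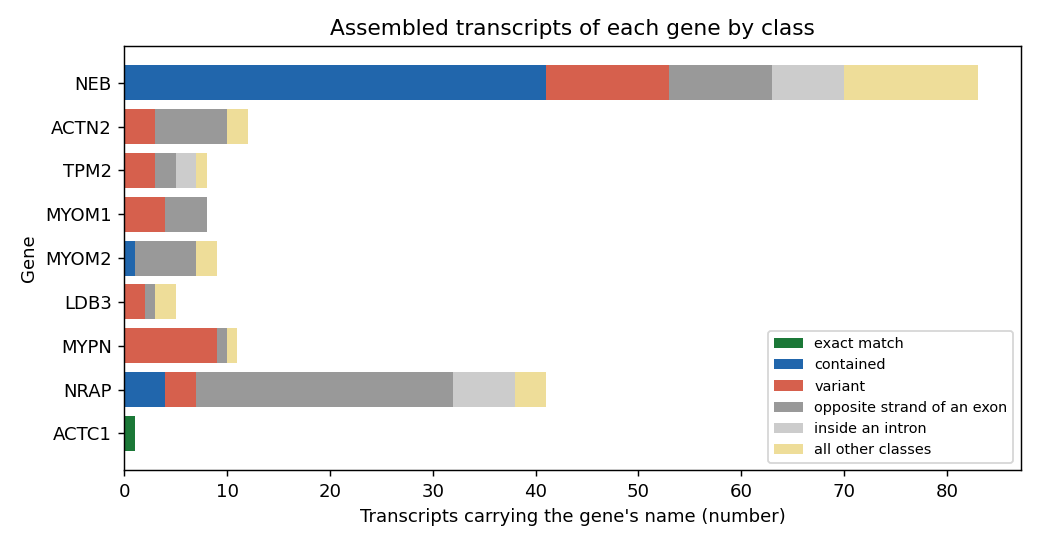
Number of transcripts that carry each gene's name (horizontal axis) for the 9 genes (vertical axis), with colours for the class of each transcript. NEB holds 83 transcripts over all classes, 41 of them contained fragments, while 25 of the 41 under the name NRAP lie on the opposite strand of an exon.

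NEB encodes nebulin. Its locus, XLOC_034375, lay on the minus strand of chromosome 7 from 38025769 to 38107977, a span of 82209 bases. It had the most transcripts of any of the 7360 genes, with UBR4 next at 32. It also had 12 variants, a number that 1 other gene, the cytoskeletal adaptor OBSL1, reached. No transcript covered the gene from end to end. The longest chains had 11 exons and 1720 bases, which placed NEB 1499th of the 7360 genes by the most exons on a transcript. Exons covered 8838 bases, or 10.8% of the span, in 65 separate stretches.

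The 53 NEB transcripts fell into 2 kinds. At the 3′ end of the gene stood 9 spliced chains of 9 to 11 exons. Upstream of them, from 38056478 to 38107977, stood 44 pieces, of which 35 had a single exon and none had more than 3. Between the chains and the pieces lay 10268 bases without an exact, contained or variant NEB transcript.

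**Figure D2:**
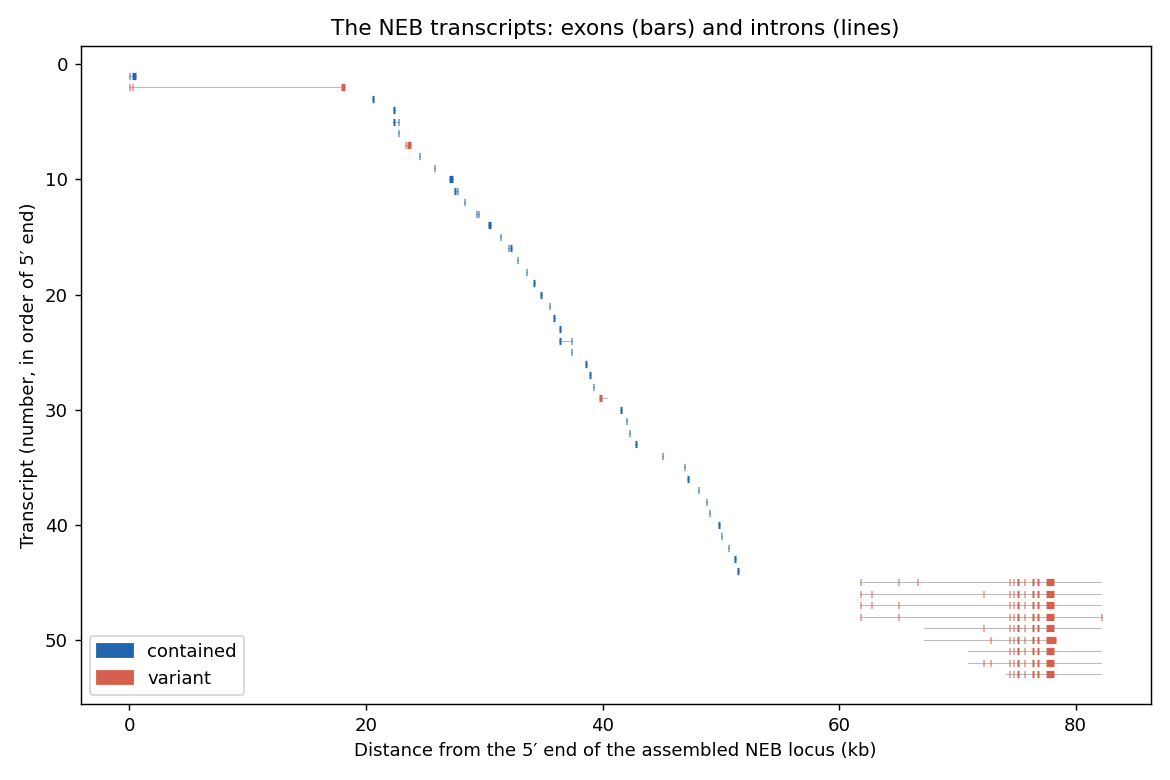
The 53 NEB transcripts in order of their 5′ ends (vertical axis) against distance from the 5′ end of the assembled locus in kb (horizontal axis), with exons as bars and introns as lines, coloured by class. Single-exon contained pieces step across the middle of the locus and the 9 multi-exon variants stack at its 3′ end.

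The 9 chains shared their downstream part. Exons of 93, 108, 184, 93, 150 and 110 bases, in order from 5′ to 3′, were in all 9 with the same ends. The next exon had 685 bases in 8 chains and ran to 832 bases in the remaining one, where the chain ended. In the 8 chains it was spliced across 4006 bases to a last exon, assembled with 9 bases in 7 chains and 59 bases in 1. These last exons share their spliced end and differ in where the assembly stopped, so the full length is unknown here. The first of the shared exons, at 38033530 to 38033622, is called C1 below.

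Upstream of C1 the chains differed. They drew on 9 exons, called V1 to V9 from 5′ to 3′, within 12332 bases from 38033878 to 38046209. As assembled, a chain held 1 to 3 of them. V2, V3, V4, V7 and V8 were spliced at both ends in at least 1 chain, and each was 93 bases long, which is 31 codons. C1 has the same length. V1, V5, V6 and V9 were seen only as the first exon of a chain, with 102, 64, 71 and 16 bases assembled at most, so their full lengths are unknown here.

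The 9 chains held 9 different sets of V exons. Every chain began in V1, V5, V6 or V9, whose 5′ end was not spliced in any chain. The V exons upstream of a chain's start were therefore not observed, and they cannot be called skipped. Chain 1 began in V6 and entered C1 from it, and chain 7 did the same from V9. Chain 5 ran V1, V3, C1, while chain 3 put V2 between V1 and V3, and chain 9 put V4 between V3 and C1. Chain 2 ran V1, V2, V7, C1. Chain 6 ran V6, V7, V8, C1, while chain 4 ran V5, V8, C1 and chain 8 ran V5, V7, C1. Chains 2, 3 and 9 each had 11 exons and 1720 bases, so they matched in length and differed in which 93-base exons they held. The annotation lists no chain of introns more than once among its 21863 spliced transcripts. That the chains differ was therefore fixed by the merging, and the number of chains says nothing about how often each combination occurred.

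C1 was joined to 6 different upstream exons: V3, V4, V6, V7, V8 and V9. This was the highest number of partners at any splice site of the 7360 genes. The next value was 4, reached by 9 genes, and 5882 genes had no site with more than 1 partner. A second partner needs at least 2 transcripts, so genes with a single transcript could not have one. Such genes ranked 4122nd of the 7360 by number of transcripts. Of the 15 junctions upstream of C1, 10 were in a single chain. When only junctions in at least 2 transcripts were counted, NEB had a site with 3 partners, 1 gene was higher, at 4, and 9 genes, both of these included, had 3 or more. NEB then no longer stood alone at the top.

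The 93-base length recurred in NEB more than in any other named gene. This length was picked from NEB's own exons, so a high rank of NEB was largely set in advance. The most repeated exon length of other genes was not counted. Among its 13 internal exons, 7 had this length, against 444 of 50599 internal exons (0.877%) over all named genes. The next genes had 3 each. Of the 13 exons, 10 had a length divisible by 3, or 76.9%, against 38.9% over all genes. The 7 exons of 93 bases are among these 10. Nearly all of the 13 lie in the 9 chains at the 3′ end, so the values do not describe the rest of the gene.

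Exon skipping, in which one chain splices in an exon that another passes over between the same outer sites, was found for V2, V4 and V8. Over the 9 sarcomere genes, 2 had a skipped exon, NEB and MYPN, against 8.4% of all genes. That share counts genes with a single transcript, which cannot show a skipped exon. The 2 genes held 5 such exons, of 746 over all genes. All 5 had lengths divisible by 3, but V2, V4 and V8 are 93-base exons of NEB, whose length was counted above. How many of the 746 had such a length was not counted, so no trait of these genes is read from this.

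**Figure D3:**
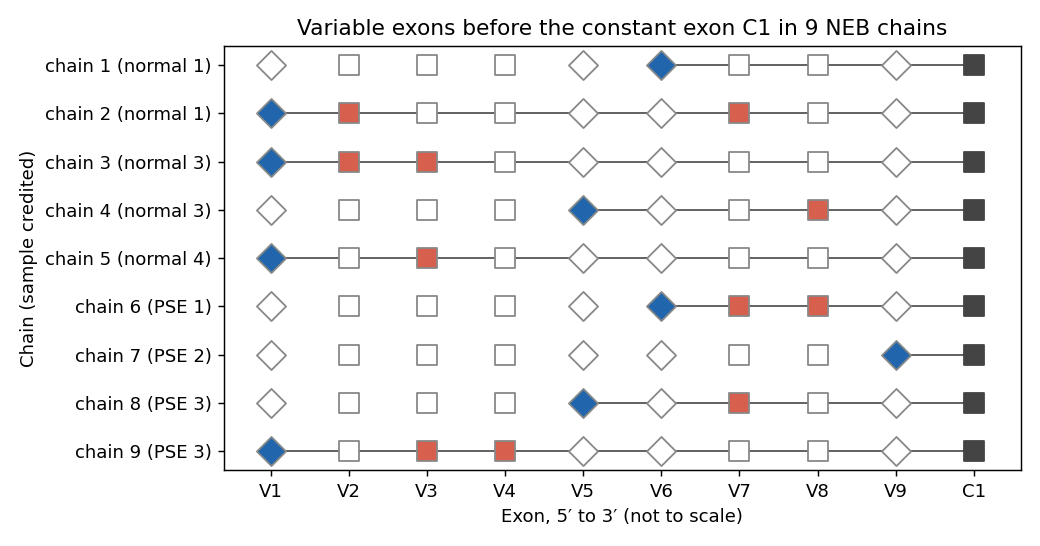
Exons V1 to V9 and the constant exon C1 in 5′ to 3′ order, not to scale (horizontal axis), for the 9 NEB chains with the sample credited with each (vertical axis). Filled red squares are 93-base exons held by the chain, and filled blue diamonds are first exons whose 5′ end was not spliced. Open symbols are exons not held, and those upstream of a chain's first exon were not observed. Lines join exons spliced to each other. No 2 chains hold the same set.

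The chains were credited to 6 samples. Chains 1 to 5 were credited to normal replicates 1, 1, 3, 3 and 4, and chains 6 to 9 to PSE replicates 1, 2, 3 and 3. A merged transcript names 1 sample even where several held it, so the credit does not say in which samples a combination was present. Whether the combinations differ between normal and PSE muscle was not tested.

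The pieces upstream were short. The 35 single exons ranged from 88 to 318 bases with a median of 112, and 29 of them had 100 to 120 bases. Their ends are not splice sites, so these lengths need not be those of whole exons. For example, a piece had 114 bases where the first exon of a spliced transcript, with the same 5′ end, had 111. Over all named genes, 752 contained transcripts had a single exon, with a median of 164.5 bases. Of these, 17.0% had 100 to 120 bases, against 82.9% of the NEB single exons. NEB held 35 of these 752, more than any other gene, and UBR4 followed with 27. The pieces lay in 48 stretches separated by a median of 455 bases. The longest gap, 17370 bases, was bridged by a variant of 3 exons, credited to normal replicate 1, with an intron of 17628 bases. The gap holds for the classes taken only. Inside it, the same locus and strand had NEB transcripts of 113, 112 and 232 bases to which no class is given. NEB had 10 transcripts without a class in all. In background terms, the middle of nebulin is a long series of similar repeats, each coded by exons of like size.

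The locus named NRAP, XLOC_034359, lay on the minus strand of chromosome 7 from 36037654 to 36072566. It held 7 transcripts, 3 variants and 4 contained fragments, and none had more than 5 exons. Its 5 internal exons had 105, 105, 108, 108 and 312 bases, all divisible by 3. Exons covered 2219 bases, or 6.36% of the span.

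The place of this locus went against its name. It was compared with RefSeq's gene order on assembly Turkey_5.1, from which only names and order were taken. Of the 10 nearest symbols on each side of NRAP in RefSeq, 6 were assembled here, and none of these 6 was among the 10 nearest named genes on either side of the locus. The same comparison gave 10 of 16 for ACTN2, 6 of 11 for LDB3 and 7 of 9 for MYPN. The other 5 genes had no entry under these symbols in the RefSeq table. In the annotation, the locus named NRAP and NEB lay 1953202 bases apart on the same chromosome. Which gene the locus belongs to was not tested, and it is called the locus named NRAP throughout.

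A locus with no gene name stood where RefSeq's neighbours of NRAP were found. It was chosen after its values were seen. XLOC_036112 lay on the minus strand of chromosome 8 from 30027666 to 30079507. Of the same 6 assembled RefSeq neighbours of NRAP, 5 were among its 10 nearest named genes on each side. It held 1 exact match of 42 exons and 10432 bases, and 1 contained transcript of 29 exons. Of the 9 named genes, none had a chain as long.

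The exon lengths of this unnamed locus were regular. Of its 40 internal exons, 38 had a length divisible by 3 (95.0%), and 33 had 90 to 120 bases (82.5%, against 24.3% of internal exons over all named genes). Exons of 105 bases numbered 16, of 108 bases 8 and of 99 bases 5. The run of 105, 99, 105 and 108 bases occurred 5 times in the chain, and 3 times it was followed by an exon of 312 bases. The last exon had 5134 bases. The file gives it no gene name, so none is given here.

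**Figure D4:**
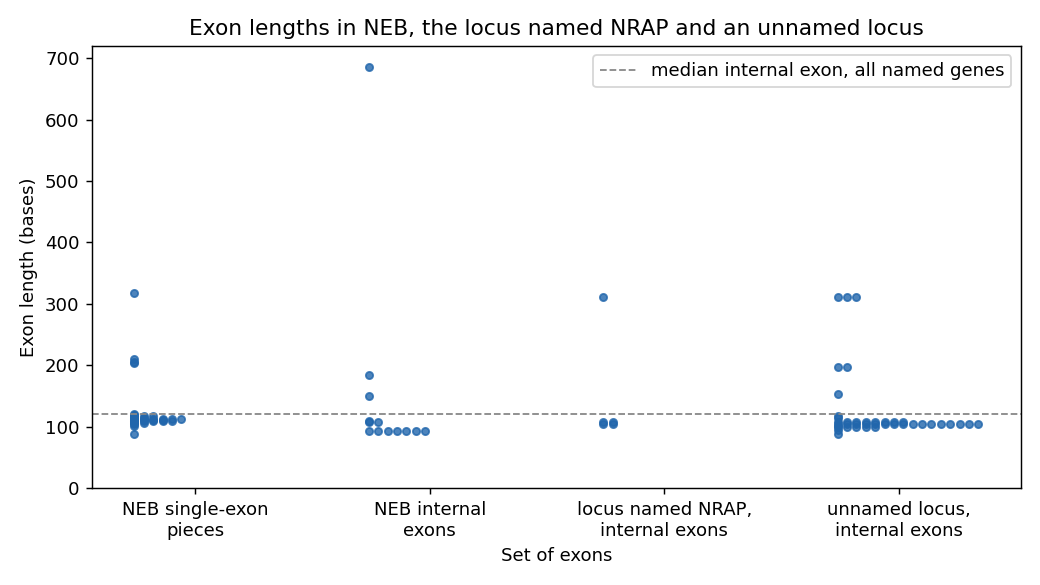
Exon length in bases (vertical axis) for 4 sets of exons (horizontal axis), with each point 1 exon, points of the same length side by side, and a dashed line at the median internal exon of all named genes (121 bases). NEB pieces cluster at about 112 bases and NEB internal exons at 93 bases. The locus named NRAP and the unnamed locus cluster at 99 to 108 bases, with exons of 312 bases in both. NEB also had exons of 312 bases, as last exons of spliced transcripts, which are not among the internal exons drawn. The NEB pieces are unspliced, so their lengths need not be those of whole exons.

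The name NRAP also stood on many transcripts of the other strand. Of its 41 transcripts over all classes, 25 (61.0%) lay on the opposite strand of an exon, a number that TRIP12 shared and only DST with 32, USP24 with 31 and UBR4 with 30 exceeded among the 7360 genes. Of the 25, 22 had a single exon. Of the 9 genes, 8 had at least 1 such transcript, against 12.9% of all genes, and ACTC1 had none. NEB had 10, ACTN2 7, MYOM2 6 and MYOM1 4. Over the 9 genes there were 56, of which 25 were those under the name NRAP. They made up 31.5% of the transcripts of every class, against 13.2% over all named genes. In NEB, 1 of them and a contained piece of the gene's own strand both ran from 38065882 to 38065993. How many matched an exon in this way was not counted. No source used here gives the strand protocol of the libraries, and whether these transcripts are antisense RNA was not tested.

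MYPN encodes myopalladin, which links nebulin to alpha-actinin in the Z-disc. Its minus-strand locus on chromosome 8 (11766933 to 11846080) held 9 transcripts, all variants, and 18 genes, MYPN included, had at least as many variants. The transcripts formed 2 blocks that no chain joined. The 5′ block held 5 chains with 14 introns from 11800291 to 11846080, and the 3′ block held 4 with 9 introns from 11766933 to 11787577. Between the blocks lay 12713 bases without an exon.

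The MYPN chains of the 5′ block differed at their upstream end. Downstream they shared the splicing of their last exons. An exon of 918 bases, or 306 codons, was present in 4 of the 5 chains and skipped in the fifth. A further exon of 126 bases, or 42 codons, was spliced in by 1 chain and passed over by another between the same outer sites. The chain without the 918-base exon passed over it as well. A different chain began in a first exon of 261 bases, which shared the downstream splice site of the 126-base exon and started upstream of it. In the 3′ block, 1 intron of 1174 bases was placed at 2 positions 5 bases apart, with the same length in both.

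LDB3 encodes a PDZ and LIM domain protein of the Z-disc. Its minus-strand locus on chromosome 8 (5607103 to 5669096) had 2 variants. They shared 7 of 8 introns. The transcript of 9 exons and 1997 bases spliced out an intron of 837 bases, at 5611495 to 5612331, before a last exon of 478 bases. The transcript of 8 exons and 6747 bases kept that intron inside a last exon of 5826 bases. LDB3 was the only one of the 9 genes with an intron retained in another transcript, against 4.05% of all genes. That share counts genes with a single transcript, which cannot show a retained intron. The second exon had 36 bases in both.

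ACTN2 encodes alpha-actinin 2, the protein that cross-links actin filaments in the Z-disc. Its locus lay on chromosome 2 from 38307331 to 38402884, minus strand, and had 3 variants matched to 2 reference transcripts. Of 23 introns, 13 were in all 3 chains. The 2 chains of 22 exons differed at 1 splice site by 8 bases, which is not a multiple of 3: the same exon had 79 bases in one and 71 in the other. Their last exons had 2344 and 1697 bases. The remaining chain had 15 exons, began downstream in an exon of 8 bases, and ended in an exon of 1578 bases. First exons of 8 and 12 bases were as short as the annotation gave them, and whether they are complete was not tested.

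MYOM1 encodes myomesin 1, which ties myosin filaments together in the M-band. It lay on the plus strand of chromosome 3 from 50257818 to 50367451. It had 4 variants of 37 exons each, the most exons of any chain among the 9 genes. It ranked 26th of the 7360 genes by the most exons on a transcript, and the highest gene had 63. All 4 chains shared 35 introns, and every difference in splicing lay between the first and second exons. One chain began in an exon of 27 bases, 40412 bases upstream of the second exon. The other 3 began in an exon of 146 to 276 bases and reached the second exon across 3369 or 3373 bases, with junctions placed 4 bases apart.

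MYOM2, the gene of myomesin 2, gave 1 transcript of the 3 classes taken, a contained fragment of 4 exons and 806 bases on chromosome 2 from 95352606 to 95362749, minus strand. The same locus, XLOC_023111, also held a transcript of 33 exons and 5445 bases under this name, from 95264732 to 95352415 on the same strand, to which the file gives no class. With every class counted, MYOM2 had 9 transcripts, 35 introns and 9061 exonic bases, against 3 introns and 806 bases in the classes taken. MYOM1 had 40 introns and 8094 exonic bases with every class. These counts include opposite-strand transcripts, 6 for MYOM2 and 4 for MYOM1, and add their bases also where they overlap exons of the gene. For MYOM2 they also include a transcript of 1 exon and 1714 bases in another locus, close to the gene and without a strand. The transcript of 33 exons alone held 5445 bases, so the short form of MYOM2 among the classes taken came from the choice of classes.

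**Figure D5:**
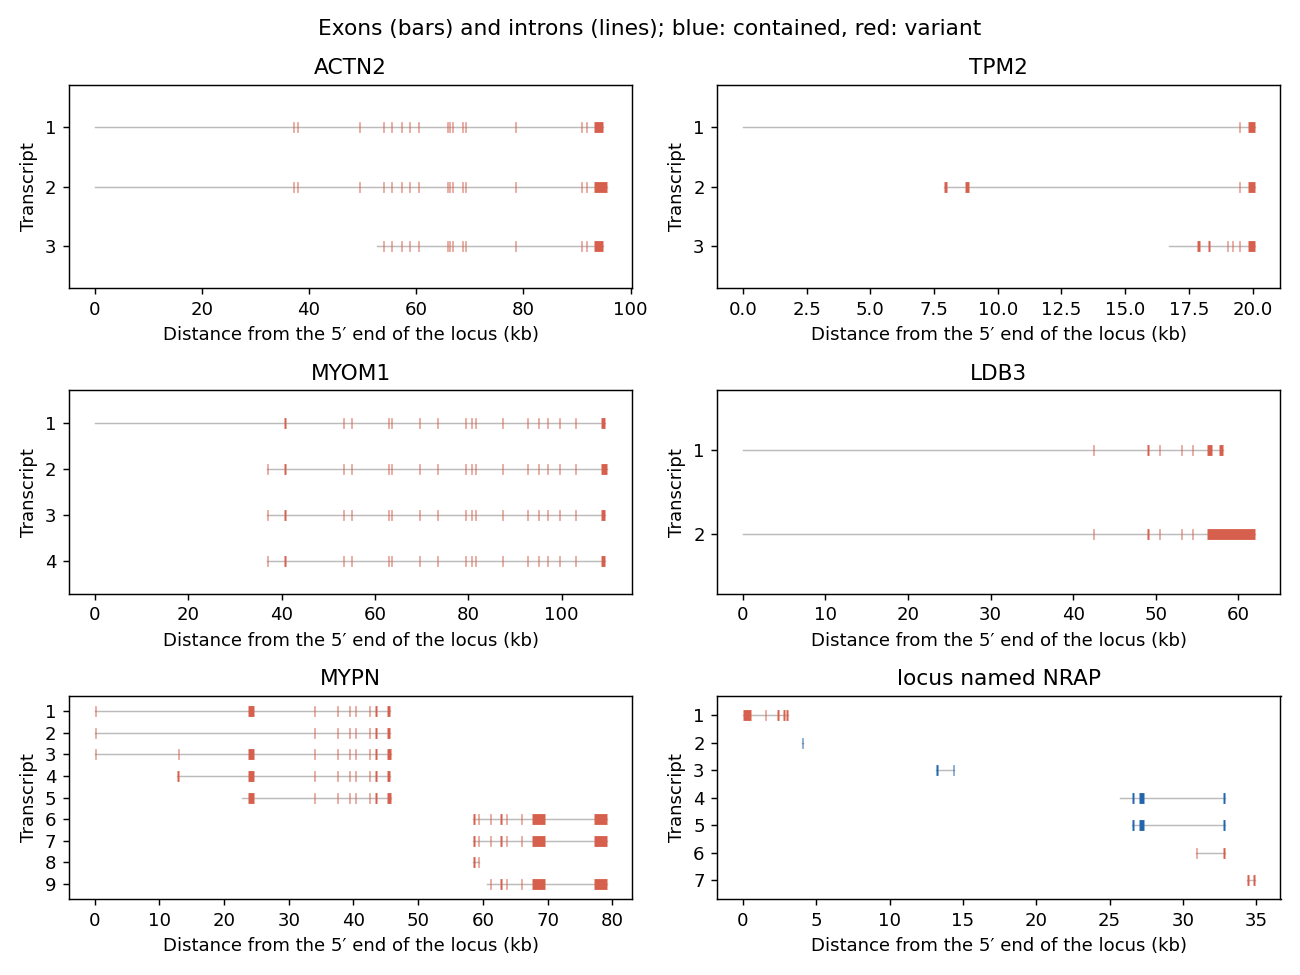
Transcripts (vertical axis) of 6 loci against distance from the 5′ end of each locus in kb (horizontal axis), with exons as bars and introns as lines, red for variants and blue for contained fragments. MYOM1 chains differ at their first exon, MYPN falls into 2 blocks, LDB3 transcripts differ in the last exon, and the locus named NRAP is in scattered pieces.

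TPM2 encodes beta-tropomyosin, which lies along the actin filament and blocks or exposes myosin binding sites. Its locus lay on the plus strand of the Z chromosome from 9462714 to 9482803 and had 3 variants. They shared 1 of 9 introns, the last, between exons of 70 and 284 bases, and all ended at the same base. The 70-base exon was joined to 3 different upstream exons, each junction in a single chain. The chain of 7 exons had internal exons of 118, 71, 76 and 63 bases before it. The chain of 4 exons had exons of 112 and 126 bases, and was spliced from the second of these across 10600 bases. The chain of 3 exons began in an exon of 8 bases, 19446 bases upstream, and whether that exon is complete was not tested. Tropomyosin genes have close paralogs, and TPM1, TPM3 and TPM4 had no transcript under these symbols.

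ACTC1 had a single transcript, an exact match of 6 exons and 1363 bases on chromosome 5 from 33516792 to 33521080, plus strand. It encodes cardiac alpha-actin, which is also known from developing skeletal muscle. Skeletal alpha-actin, ACTA1, had no transcript under its symbol. Muscle actins are nearly identical in sequence, so reads can be shared between them, and the annotation does not show how such reads were placed.

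The wider set of sarcomere genes was listed by role. Of 59 genes, 34 were assembled, of which 21 had a variant (61.8%, against 52.0% of all genes) and 7 a skipped exon (20.6%, against 8.4%). Both shares for skipped exons count genes with a single transcript, which cannot show one. Of 29 Z-disc genes 21 were assembled and 14 had a variant. Among them were PALLD, the relative of myopalladin, with 6 transcripts of up to 12 exons, and MYOT, which binds alpha-actinin, with 3. DES, the intermediate filament desmin, had 5, and CSRP3, a LIM protein of the Z-disc, had 1.

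Of 9 M-band genes, 5 were assembled and all 5 had a variant. OBSL1, which binds myomesin, had 12 transcripts, all variants, and TRIM63, TRIM54 and TRIM55, ubiquitin ligases that bind titin, had 2, 2 and 3. Of 13 thin filament genes 4 were assembled, and none had a variant. TMOD4 and LMOD3, which act at the pointed end of thin filaments, had 1 transcript each. Of 5 elastic and thick filament genes, MYBPC1 was assembled, with 1 variant of 29 exons, and TTN had no transcript under its symbol. The 3 assembly factors, UNC45B, SMYD1 and HSP90AA1, were all assembled. KBTBD13, of the thin filament list, was named in the annotation but had no transcript of the classes taken. A gene absent under its symbol may stand under another name.

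The samples credited with the 83 transcripts were uneven. Normal replicates 1 to 4 were credited with 18, 2, 28 and 7, and PSE replicates 1 to 4 with 3, 19, 6 and 0. PSE samples thus held 33.7%, against 10.4% of the 15928 transcripts over all named genes. NEB accounted for most of this: 27 of its 53 were credited to normal replicate 3 and 16 to PSE replicate 2, and 22 (41.5%) to PSE samples together. MYPN had 8 of 9 in normal samples and the locus named NRAP 6 of 7. Over all named genes, normal replicates 1 to 4 were credited with 7861, 3449, 1819 and 1143, and PSE replicates 1 to 4 with 852, 472, 290 and 42. Those credits fell in sample order with the PSE samples last, so in the 10.4% group and order cannot be told apart. Each transcript names 1 sample, so these counts describe the merging and give no level in any sample.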

How the data were processed

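RNA from 8 turkey breast muscles was sequenced, per the labels' protocols. The submitters' processing notes list TopHat, Cufflinks, HTSeq and DESeq, with no versions or roles. The authors deposited a merged transcript annotation, in which Cufflinks is the source of every line, per the file. Coordinates are 1-based, as deposited. For genome build, read length and strand protocol: not given in the sources used here. A deposited table of counts per locus has 8 columns of values with no names. None could be matched to a sample, so they were not used and the planned test of PSE against normal was not made. Depth over the unnamed columns was not computed either. Sample credits were read from the start of each assembly name, which writes the letter O where the sample titles have a zero.

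Transcripts were read and compared with Python 3.11.15, pandas 2.3.3 and NumPy 2.4.6, and drawn with matplotlib 3.10.9. Introns were the same when both ends matched. Transcripts with another class or none, also long ones such as that of MYOM2, were left out of the counts for the 9 genes and for all genes alike, except where every class is named. The steps that find skipped exons and retained introns were checked on simulated transcripts. The 9 genes, the gene lists and the markers were chosen with earlier results of these data known. All 9 genes were named whatever their values, with others from the lists; UBR4, DST, USP24, TRIP12 and the unnamed locus were added after their values were seen. No sequence table was used, so no sequence is shown. Some neighbouring genes are not reported here.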

Additional observations from a re-analysis of the deposited data

Results flagged for a closer look

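For NEB, normal replicate 3 was credited with 27 transcripts, far from the 3, 0 and 1 of the other normal samples. In 7 further groups of 4 samples, 1 sample was credited with 1 transcript and the others with 0 (NRAP, MYPN, LDB3 and ACTN2 among the PSE samples, and MYOM2, LDB3 and ACTC1 among the normal samples). Any group with a single credited transcript stands out in this way, so these 7 show nothing beyond that count. For continuous values, chance alone flags about 1 in 20 groups; that rate does not hold for such small counts. A merged transcript names 1 sample, and the part of the merging in these counts was not tested.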

How the results depend on the processing

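Totals over the 9 genes and the partners of C1 in NEB kept within 1.5 times their value in 30 of 37 recomputations. Some of these could not move. PSE replicate 4 was credited with 0 of the 83 transcripts, so leaving it out changed nothing. The count of genes with a variant was also fixed when only spliced transcripts were kept, as a variant shares a splice junction. The 83 transcripts became 178 with every class, 47 with only spliced transcripts and 1 with only exact matches. The exonic length of 40116 bases became 74433 with every class, which adds opposite-strand transcripts also where they overlap exons of the gene. The 6 partners of C1 became 3 when a junction had to be in at least 2 transcripts, a setting chosen after seeing the data. The cause of each move was the setting itself, which adds or drops transcripts. Leaving out the transcripts credited to each sample in turn, also chosen after seeing the data, gave 55 to 83 transcripts, the lowest without normal replicate 3, 5 or 6 partners, and 3 to 5 skipped exons, the lowest without normal replicate 1. Among values of single genes, 23 of 72 recomputations moved further. The planned count tests and their alternatives (DESeq2 size factors, no filter, leaving out samples, a replicate block) were not run. No paired analysis was possible, because the sample labels give no pairing of birds and the count columns carry no sample names. Depth was not computed from the unnamed columns, and read length is unknown here. Which junctions of NEB were missed, and how firmly several were joined in 1 chain, cannot be stated.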
